A study of Mus musculus with 26 samples.

Results

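Organoids treated with the Malat1 antisense oligonucleotide ASO1 were compared with organoids treated with the control oligonucleotide scASO. The libraries were chosen by their titles, 4 ASO1 (numbers 1 to 4) and 4 scASO (numbers 1 to 4), which makes 8 of the 26 libraries of the series. All organoids came from mammary tumors of MMTV-PyMT mice on the C57BL/6 strain, in which the MMTV promoter drives the polyoma middle T oncogene in mammary epithelium, so that every group, controls included, carried the transgene. They were grown in Matrigel with FGF2, and the oligonucleotide was present at 500 nM for 6 days and renewed after 3 days. The remaining organoid groups, 4 libraries of a second Malat1 oligonucleotide (ASO2) and 4 Mock libraries, shared the fit, and 10 tumor libraries completed the series. The labels give no age, and they do not say whether the numbers stand for separate mice, organoid preparations or cultures, so a p-value here speaks only to how these libraries vary, which could be technical variation.

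Malat1 is a long noncoding RNA that stays in the nucleus and collects at nuclear speckles, bodies rich in splicing factors. Its neighbour Neat1 is the scaffold of paraspeckles. An antisense oligonucleotide pairs with its target RNA and, where it has a DNA gap, recruits RNase H, which cuts the RNA strand. The question of the comparison was what 6 days with a Malat1 oligonucleotide did to the RNA of tumor organoids beyond the effect of an unrelated oligonucleotide.

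Reads assigned to genes numbered 39869538 to 60658678 in the ASO1 libraries and 23973533 to 39042680 in the scASO libraries, with scASO 3 and 4 the shallowest. The labelled epithelial origin was visible in the markers: luminal markers such as Krt8, Krt18 and Epcam summed to 8188 to 11700.3 CPM (read counts scaled to a common TMM-adjusted library size) in the 8 libraries, basal markers to 3515 to 10323 CPM, and leukocyte markers to 49.7 to 239 CPM. Libraries of number 4 stood apart on the first principal component of the organoid libraries, which took up 82.4% of the variance among the 500 genes that varied most. One library went against its label, the library labelled scASO 2: it carried 106 CPM of Malat1, and outside Malat1 its profile correlated with that of Mock 1 at 0.722 and with that of Mock 2, its own number, at 0.387. The library labelled ASO2 1 showed the opposite, with 1343 CPM of Malat1 and correlations of 0.758 with Mock 2 and 0.263 with Mock 1. The other 10 treated libraries lay nearest the Mock library of their own number. Both libraries came to notice through their Malat1 level, so Malat1 values computed without them are descriptions, with no test. If their numbers do not hold, number 2 is not a matched pair, and counts over all 4 numbers are therefore given beside those over numbers 1, 3 and 4. Lists are given with all libraries and without the library labelled scASO 2. Single genes are given with all libraries, with the other value where it differed by over 1.5 times.

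Malat1 (chromosome 19) was the RNA the oligonucleotide was directed against. Its level was 169, 102, 80.4 and 116.8 CPM in ASO1 1 to 4. In scASO 1 to 4 it was 762, 106, 729.8 and 1129.9 CPM, and in Mock 1 to 4 it was 694, 1447, 667 and 1261 CPM. All ASO1 libraries lay far below the scASO libraries 1, 3 and 4 and below every Mock library, while the library labelled scASO 2 lay among the ASO1 libraries. The mean log2 ratio of ASO1 to scASO was -2.17, or 22.2% of the control level (exact permutation test over all libraries, two-sided, p = 0.0857, 70 splits). That test takes no account of the numbers. Exchanging the labels only within numbers gave an exact p of 0.125, the smallest that 4 numbers allow. Without the library labelled scASO 2 the ratio was -2.92, or 13.2%.

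**Figure D1:**
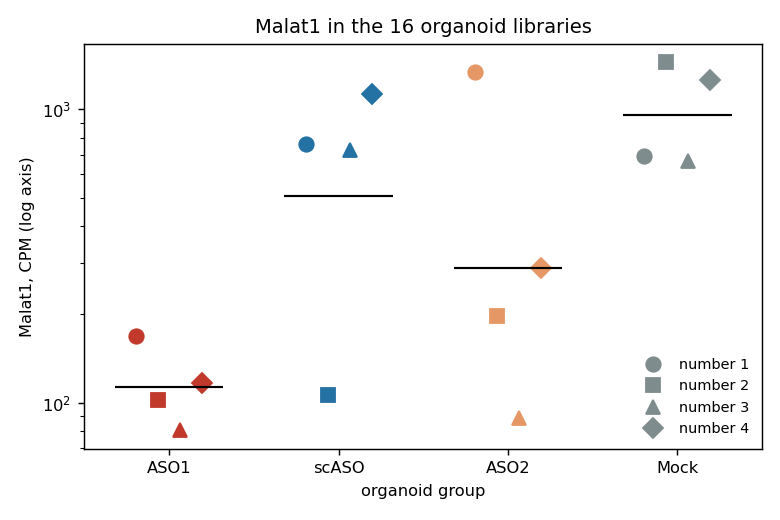
Malat1 in CPM (log axis) in each of the 16 organoid libraries, by group, with a marker for each replicate number and a line at the geometric mean of each group. The ASO1 libraries sit between 80.4 and 169 CPM, and the library labelled scASO 2 sits at 106 CPM among them.

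In the fit across all genes, with the replicate number as a block, the log2 fold change of Malat1 was -2.53 ± 0.69 (SE, adjusted p = 0.682), and without the library labelled scASO 2 it was -3.01 ± 0.59. That fit shared 1 estimate of spread over all 4 organoid groups, including the ASO2 library that goes against its label. With the libraries labelled scASO 2 and ASO2 1 both left out, the estimate was -2.96 ± 0.27, which left 12.8% of the control level.

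Neat1, transcribed beside Malat1 on chromosome 19, was at 982, 658, 802 and 1134 CPM in ASO1 1 to 4. In scASO 1 to 4 it was at 906, 855, 729 and 1151 CPM, so the groups overlapped across their whole range. The mean log2 ratio was -0.04 (exact permutation p = 0.886), and the fit gave -0.04 ± 0.16 (SE), or 0.06 ± 0.17 without the library labelled scASO 2. Of 17 tested genes around Malat1, including Neat1, 10 had a higher and 7 a lower estimate, with a median log2 fold change of 0.02 against 0.00 over all genes, and 12 had a higher estimate (median 0.05) without the library labelled scASO 2. The most divergent neighbour was Kcnk7, a potassium channel family gene at 0.85 to 6.72 CPM in ASO1 and 0.38 to 5.62 CPM in scASO libraries, whose estimate was 0.75 ± 0.27 (adjusted p = 0.682). Sipa1, a GTPase-activating protein of Rap, had an estimate of 0.23 ± 0.10 (adjusted p = 0.682).

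Across the transcriptome, no gene passed an adjusted p of 0.05 between ASO1 and scASO: 0 of 17126 tested (0%) with all libraries, and 0 of 17388 (0%) without the library labelled scASO 2. At an unadjusted p of 0.05, 1226 genes (7.16%) stood out with all libraries, 773 higher and 453 lower, and 637 (3.66%) without that library, 338 higher and 299 lower. The smallest adjusted p was 0.682 with all libraries and 0.909 without it. With the libraries labelled scASO 2 and ASO2 1 both left out, the only one of 17325 genes called (0.00577%) was Malat1, whose own values had singled out those libraries, and no other gene was called. Higher estimates made up 51% of genes with all libraries and 51.3% without the library labelled scASO 2, and the median fold change was 0.00 in both.

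**Figure D2:**
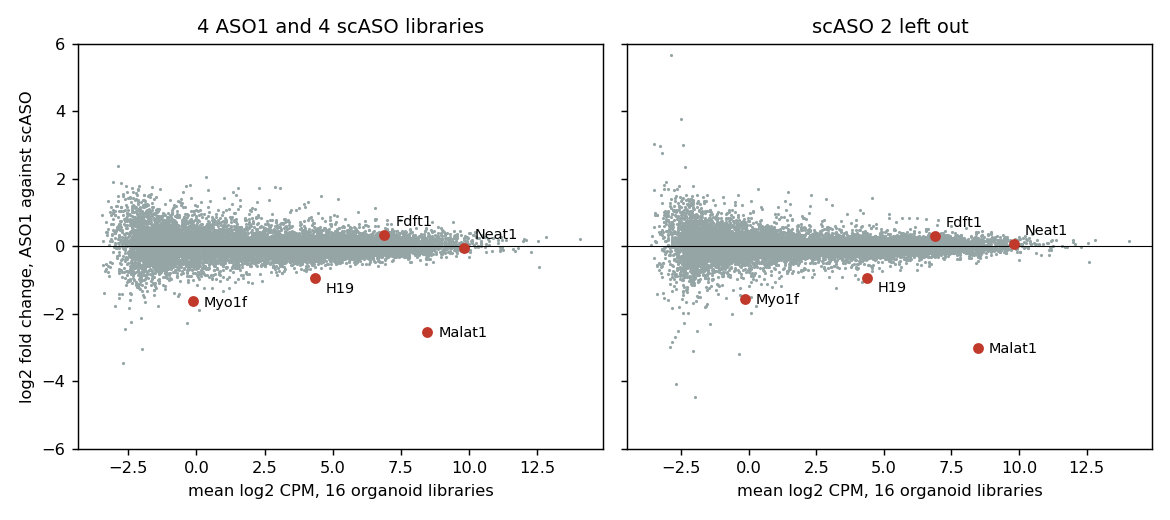
Log2 fold change of ASO1 against scASO for each tested gene against its mean log2 CPM over the 16 organoid libraries, with all libraries (left) and without the library labelled scASO 2 (right). Malat1 lies at -2.53 and -3.01, away from other genes of its abundance, and no gene, Malat1 included, passes the test in either fit.

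Other tools named a few genes. DESeq2 with all libraries called Myo1f, a class I myosin of leukocytes, lower (-1.64, adjusted p = 0.00546) and Rps15a-ps7, a processed pseudogene of a ribosomal protein, higher (0.57, adjusted p = 0.00659), and it called 0 genes without the library labelled scASO 2. Myo1f was at 0.45, 0.28, 0.72 and 0.68 CPM in ASO1 1 to 4 and at 0.73, 0.92, 3.25 and 2.12 CPM in scASO 1 to 4. Its groups did not overlap, which was so for 18 lower genes of 17126 (0.105%) with all libraries. Rps15a-ps7 was at 38.9, 54.6, 88.6 and 113 CPM against 26.4, 35.5, 59.3 and 78.9 CPM, higher in ASO1 within each number. Reads of a processed pseudogene can come from its parent gene, so that value is uncertain. These genes were chosen after their values were seen.

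H19 is an imprinted long noncoding RNA that lies beside the growth factor gene Igf2 and is abundant in fetal tissue. Its level was 24.5, 14.2, 20.2 and 7.0 CPM in ASO1 1 to 4 and 47.8, 32.2, 36.7 and 12.2 CPM in scASO 1 to 4. It was lower in ASO1 within each of the 4 numbers, and the groups overlapped because both libraries of number 4 were low. Over all genes, 7.92% showed this. The log2 fold change was -0.95 ± 0.35 (adjusted p = 0.682), and -0.94 ± 0.38 without the library labelled scASO 2 (adjusted p = 1). In a fit of the 7 ASO1 and scASO libraries alone, it was -0.89 with an adjusted p of 0.0253. Igf2 was near the limit of detection, at 0.12 to 1.34 CPM in ASO1 and 0.17 to 5.29 CPM in scASO libraries, with an estimate of -1.42 ± 0.81. Of 14 tested imprinted growth genes, 7 had a higher estimate, and 5 did without the library labelled scASO 2.

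**Figure D3:**
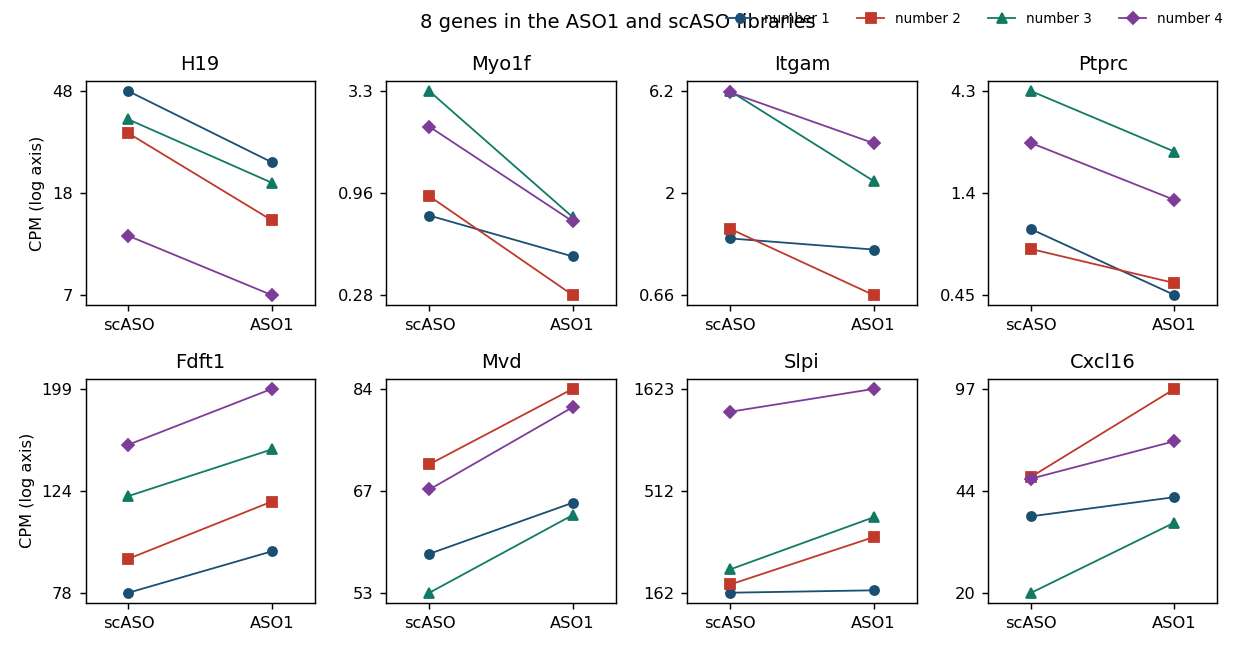
CPM (log axis) of 8 genes in the scASO and ASO1 libraries, with lines joining libraries of the same number. H19, Myo1f, Itgam and Ptprc are lower and Fdft1, Mvd, Slpi and Cxcl16 higher in ASO1 within each number, and none passes the test across all genes.

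SR proteins and other speckle splicing factors, which share the nuclear bodies where Malat1 collects, showed small estimates. Of 28 tested members, 12 had a higher estimate with all libraries (median -0.06) and 6 without the library labelled scASO 2 (median -0.05), and none was called. In 7 of the 28 the ASO1 library was lower within all 4 numbers, against 7.92% of all genes, and in 11 within numbers 1, 3 and 4, against 13.3%. Srsf10, a splicing regulator, was at 85.8, 59.9, 93.4 and 90.0 CPM in ASO1 1 to 4 and at 87.3, 77.2, 109 and 98.1 CPM in scASO 1 to 4, an estimate of -0.18 ± 0.06 (adjusted p = 0.682). Srpk2, a kinase that phosphorylates SR proteins, was at 79.2, 63.3, 73.2 and 68.3 CPM against 83.9, 72.1, 82.1 and 82.2 CPM, an estimate of -0.17 ± 0.07. Both were lower in ASO1 within each number, by amounts close to the spread within a group. Of 14 paraspeckle proteins, 3 had a higher estimate (median -0.07), and 6 did without the library labelled scASO 2 (median -0.02).

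Proteins that take up or act with antisense oligonucleotides, such as scavenger receptors and RNase H subunits, had a median of 0.04 over 20 tested genes, 11 of them higher (12 and a median of 0.03 without the library labelled scASO 2). Sensors of foreign nucleic acid, which can respond to oligonucleotides in general, leaned lower: 6 of 19 tested sensors had a higher estimate (median -0.11), and 4 did without the library labelled scASO 2 (median -0.23). Tlr8, an endosomal RNA receptor, was near the limit of detection at 0.12, 0.10, 0.29 and 0.14 CPM in ASO1 1 to 4 and at 0.25, 0.12, 1.02 and 0.43 CPM in scASO 1 to 4, an estimate of -1.33 ± 0.36. Ifih1, a cytoplasmic sensor of double-stranded RNA, was at 24.8 to 71.9 CPM in ASO1 libraries, ASO1 4 the lowest, and at 36.4 to 104 CPM in scASO libraries, scASO 3 the highest, an estimate of -0.24 ± 0.16, or -0.39 ± 0.14 without the library labelled scASO 2. The sensors gave no called member in either fit.

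Interferon-stimulated genes had differences of both signs across the numbers. The difference of ASO1 from scASO in the mean log2 CPM of the list was 0.10 in number 1, 1.24 in number 2, -0.63 in number 3 and -1.01 in number 4. The list's summed level was highest in scASO 3, at 1552 CPM, and lowest in ASO1 4, at 306 CPM, and Mock 2 and Mock 3 were at 1747 and 1325 CPM. Of 30 tested members, 6 had a higher estimate (median -0.17), and without the library labelled scASO 2 this was 3 (median -0.53). With the library labelled scASO 2 kept, the direction rested on single libraries: 23 of 30 were higher without scASO 4 (median 0.09). This was 15 of 30 without scASO 3 (median 0.00) and 24 of 30 without all libraries of number 4 (median 0.12). Without the libraries labelled scASO 2 and ASO2 1, 2 of 30 were higher (median -0.53), and none was called. At an unadjusted p of 0.05 (edgeR), 17 were lower in that fit, against 2.8% of all genes. Within all 4 numbers 0 members were lower, against 7.92% of all genes. Within numbers 1, 3 and 4 this was 11, against 13.3%. Ifit2, an antiviral protein, was at 17.4, 15.3, 18.6 and 5.68 CPM in ASO1 1 to 4 and at 16.4, 15.5, 56.2 and 12.8 CPM in scASO 1 to 4. There scASO 3 was the high library and ASO1 4 the low one, and the test did not pass (adjusted p = 0.682).

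Chemokines, cytokines and defense proteins, through which epithelium calls in leukocytes and holds off microbes, leaned higher in ASO1. Of 30 tested members of 32, 27 had a higher estimate (median 0.38), and 25 did without the library labelled scASO 2 (median 0.33), with none called. The lean was largest in number 2, where the list's mean log2 CPM differed by 0.94, against 0.17, 0.59 and 0.24 in numbers 1, 3 and 4. Of the members, 9 were higher within all 4 numbers, against 9.48% of all genes, and 9 within numbers 1, 3 and 4, against 15.1%. Slpi, a secreted inhibitor of leukocyte proteases, was at 166, 303, 379 and 1623 CPM in ASO1 1 to 4 and at 162, 177, 211 and 1253 CPM in scASO 1 to 4, an estimate of 0.52 ± 0.16 (adjusted p = 0.682). Cxcl16, a membrane-anchored chemokine, was at 42.2, 96.7, 34.8 and 64.8 CPM against 36.5, 49.4, 20.3 and 48.7 CPM, an estimate of 0.60 ± 0.19. Both were higher in ASO1 within each number, but numbers differed more than groups.

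C3, the central component of complement, was at 109.6, 281, 33.4 and 115 CPM in ASO1 1 to 4 and at 86.7, 115, 13.2 and 116 CPM in scASO 1 to 4, with the libraries of number 4 level. Its estimate was 0.75 ± 0.26 (adjusted p = 0.682). Cxcl3, a neutrophil chemokine, had an estimate of 1.43 ± 0.53 (0.94 ± 0.55 without the library labelled scASO 2) with levels of 0.46 to 5.87 CPM in ASO1 and 0.12 to 3.70 CPM in scASO libraries. The cytokine Il1a had an estimate of 1.75 ± 0.71, or 1.53 ± 0.81 without the library labelled scASO 2. Against the Mock libraries of the same fit, 7 of the 30 members were called higher in ASO1 (background 1.87% of genes called higher) and 0 in scASO (background 0.549%), and these contrasts share the Mock libraries. The counts were 9 and 0 without the library labelled scASO 2 (backgrounds 2.39% and 0.288%), and 13 and 2 without the libraries labelled scASO 2 and ASO2 1 (backgrounds 4.39% and 1.4%). The list's median against Mock was above 0 in both groups, at 0.51 in ASO1 and 0.18 in scASO with all libraries. It was 0.50 and 0.33 without the library labelled scASO 2, and 0.49 and 0.33 without the libraries labelled scASO 2 and ASO2 1.

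Markers of macrophages and other leukocytes leaned lower. Of 15 tested markers of 20, 1 had a higher estimate with all libraries (median -0.52) and 3 without the library labelled scASO 2 (median -0.33), and none was called. Without the libraries of number 4 the median was -0.85. Their summed level was 49.7 to 239 CPM in ASO1 and 68.7 to 223 CPM in scASO libraries, and the mean log2 CPM of the list differed by -0.30, -0.62, -0.41 and 0.05 in numbers 1 to 4. The lymphocyte markers Cd3e, Cd3g, Cd8a and Cd79a were at or near 0 and below the count filter, and Cd8a was at 0 in all 8 libraries. In bulk RNA, fewer cells of a type and less RNA per cell cannot be told apart.

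Itgam, the integrin chain CD11b of myeloid cells, was at 1.09, 0.66, 2.31 and 3.50 CPM in ASO1 1 to 4 and at 1.23, 1.37, 6.18 and 6.09 CPM in scASO 1 to 4. The estimate was -0.90 ± 0.22 with all libraries and -0.88 ± 0.24 without the library labelled scASO 2 (adjusted p = 0.682 and 1). Ptprc, the pan-leukocyte surface protein CD45, was at 0.45, 0.51, 2.22 and 1.29 CPM against 0.93, 0.75, 4.35 and 2.44 CPM, an estimate of -0.88 ± 0.23. C1qa, a complement subunit made by macrophages, was at 3.20, 1.33, 7.63 and 4.32 CPM against 4.63, 6.02, 12.3 and 7.35 CPM. Its estimate was -1.09 ± 0.29, and -0.65 ± 0.17 without the library labelled scASO 2. These genes were lower in ASO1 within each number, while their groups overlapped because numbers 3 and 4 held more of them than numbers 1 and 2.

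Lyz2, the most abundant marker of the list, was at 20.2, 30.5, 53.3 and 121 CPM in ASO1 1 to 4 and at 30.0, 43.0, 86.2 and 101 CPM in scASO 1 to 4, so number 4 went the other way. Cd68, a lysosomal glycoprotein of macrophages that other cells also make, was the exception among the markers. It was at 9.14, 56.6, 17.3 and 44.9 CPM in ASO1 1 to 4 and at 8.0, 12.9, 12.2 and 30.6 CPM in scASO 1 to 4, higher within each number, an estimate of 0.88 ± 0.38 (adjusted p = 0.682).

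**Figure D4:**
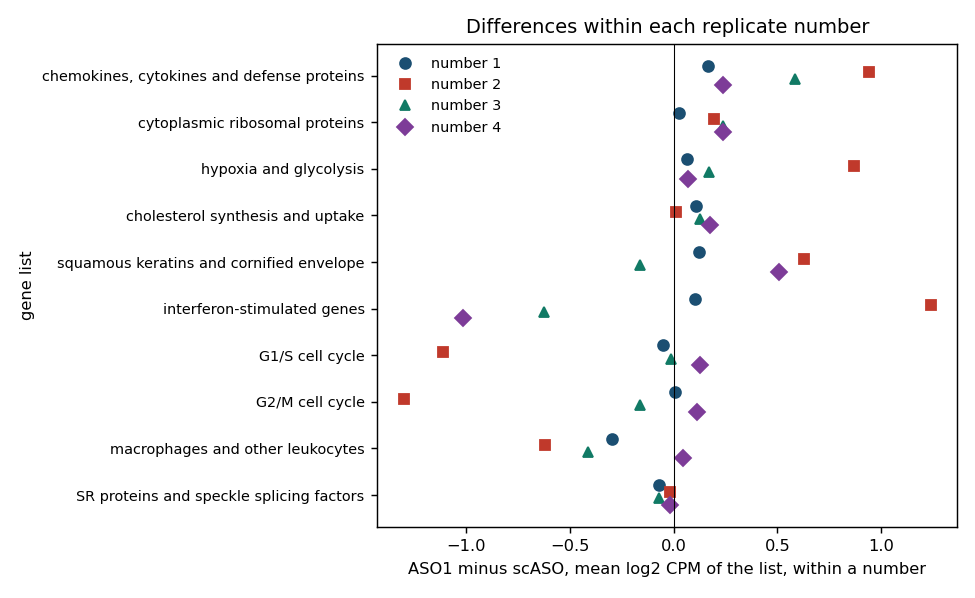
Difference of ASO1 from scASO in the mean log2 CPM of 10 gene lists, within each replicate number. Number 2, which holds the library labelled scASO 2, lies farthest out for most of the lists (-1.30 for G2/M genes and 1.24 for interferon-stimulated genes).

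Cell cycle genes showed how much the library labelled scASO 2 weighed. All 28 G2/M genes had a lower estimate with all libraries (median -0.36), and 25 did without it (median -0.06). By number, the mean log2 CPM of the list differed by 0.01, -1.30, -0.16 and 0.12. Of the 28 G1/S genes, 2 had a higher estimate with all libraries (median -0.32) and 12 without it (median -0.02). Mki67, a marker of dividing cells, was at 780.5, 199, 444 and 319 CPM in ASO1 1 to 4 and at 715, 687, 465 and 362 CPM in scASO 1 to 4. Bub1, a kinase of the spindle checkpoint, was at 22.5, 7.12, 24.2 and 23.6 CPM against 21.4, 22.5, 30.3 and 25.9 CPM. In both genes ASO1 2 was the lowest library, and Mock 2 was low for the list as well, at 1175 CPM against 1514 to 2364 CPM in the other Mock libraries.

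Genes of cholesterol synthesis and uptake had small but one-sided estimates. Of 26 tested members of 27, 22 had a higher estimate with all libraries (median 0.10), and all 26 did without the library labelled scASO 2 (median 0.11), where 51.3% of all genes did, and none was called. Within all 4 numbers, 8 members were higher, against 9.48% of all genes, and within numbers 1, 3 and 4, 16 were, against 15.1%. The mean log2 CPM of the list differed by 0.11, 0.01, 0.13 and 0.18 in numbers 1 to 4. Fdft1, squalene synthase and the first enzyme committed to sterols, was at 94.0, 118, 151 and 199 CPM in ASO1 1 to 4 and at 77.6, 90.9, 121 and 154 CPM in scASO 1 to 4. Its estimate was 0.34 ± 0.07 with all libraries and 0.31 ± 0.09 without the library labelled scASO 2 (adjusted p = 0.682 and 1). Mvd, which makes isopentenyl diphosphate, was at 64.9, 84.4, 63.1 and 80.9 CPM against 57.7, 71.0, 52.8 and 66.9 CPM, an estimate of 0.24 ± 0.07. Fdps, farnesyl diphosphate synthase, was at 127, 161, 196 and 223 CPM against 113, 147, 165 and 169 CPM, an estimate of 0.24 ± 0.08. All of these were higher in ASO1 within each number. Pmvk, phosphomevalonate kinase, was higher in numbers 2, 3 and 4, with an estimate of 0.20 ± 0.09, and Srebf2, the transcription factor that drives the pathway, was at 0.04 ± 0.09 (0.08 ± 0.10 without the library labelled scASO 2).

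The promoters of these genes are described as background. Sterol genes are known to be driven by SREBP2, the product of Srebf2, beside the CCAAT-binding factor NF-Y. RefSeq promoter windows (build GRCm38.p6) matched 17 of the 26 tested members. CCAAT, on either strand, stood in the 250 bases before the start of 16 of the 17 (94.1%), the exception being Abca1, a cholesterol exporter, and in 37.5% of 27025 genes with such a window. For comparison, CCAAT stood in 7 of 23 ribosomal protein genes (30.4%). In each of these counts a gene with several windows was counted if any of them held CCAAT. Pmvk had a window with 1 match (chr3:89454291-89454540) and another with 0 (chr3:89459321-89459570). A match is a run of letters, and binding was not measured. The share is a trait of the listed genes, and a link of CCAAT to their estimates was not tested. Fdft1 and Fdps had no window. In the windows of Mvd (chr8:122443423-122443672, minus strand) and Srebf2 (chr15:82147019-82147268, plus strand) below, written 5′ to 3′ on the strand of the gene, capitals mark CCAAT or its complement ATTGG.
Mvd: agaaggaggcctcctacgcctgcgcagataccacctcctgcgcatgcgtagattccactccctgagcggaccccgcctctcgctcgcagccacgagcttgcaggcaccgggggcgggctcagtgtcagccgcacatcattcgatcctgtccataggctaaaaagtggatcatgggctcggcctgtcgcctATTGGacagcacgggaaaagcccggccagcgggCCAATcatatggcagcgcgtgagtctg
Srebf2: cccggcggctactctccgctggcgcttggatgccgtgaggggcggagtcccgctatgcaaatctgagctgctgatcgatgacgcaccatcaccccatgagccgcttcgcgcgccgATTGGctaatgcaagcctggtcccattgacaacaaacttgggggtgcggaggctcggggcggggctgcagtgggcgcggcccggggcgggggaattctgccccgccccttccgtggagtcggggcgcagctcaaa

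Cytoplasmic ribosomal protein genes also leaned higher. Of 31 tested members of 32, 24 had a higher estimate with all libraries (median 0.23) and 26 without the library labelled scASO 2 (median 0.18), and 17 were higher within all 4 numbers, where 9.48% of all genes were. The count within numbers 1, 3 and 4 was also 17, against 15.1% of all genes. Rpl37 was at 9.81, 12.1, 17.7 and 18.1 CPM in ASO1 1 to 4 and at 8.99, 7.34, 9.88 and 14.5 CPM in scASO 1 to 4, an estimate of 0.50 ± 0.13 (adjusted p = 0.682). Rpl18 was at 96.9, 133, 229.8 and 304 CPM against 93.6, 113, 166 and 218 CPM, an estimate of 0.31 ± 0.10. Rps14 had an estimate of 0.40 ± 0.15, and Rpl4, the most abundant member at 1275 to 2166 CPM, one of 0.16 ± 0.14 (0.08 ± 0.15 without the library labelled scASO 2). Against the Mock libraries, which both contrasts share, the list's median was -0.11 in ASO1 and -0.32 in scASO (-0.10 and -0.28 without the library labelled scASO 2). Ribosomal protein genes have many near-identical copies, and reads with several alignments were not counted, so their values are uncertain.

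Genes of oxidative phosphorylation, the mitochondrial chain that makes ATP, had 22 of 31 members with a higher estimate (median 0.09), and 28 of 31 without the library labelled scASO 2 (median 0.09). Of the 31, 4 were higher within all 4 numbers, against 9.48% of all genes, and 16 within numbers 1, 3 and 4, against 15.1%. The mean log2 CPM of the list differed by 0.12, -0.21, 0.14 and 0.21 in numbers 1 to 4. Cox4i1, a subunit of cytochrome c oxidase, was at 187, 214, 283 and 299 CPM in ASO1 1 to 4 and at 171, 214, 226 and 235 CPM in scASO 1 to 4. Its estimate was 0.20 ± 0.08 (adjusted p = 0.682), and Cox6c, another subunit, had 0.18 ± 0.07.

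Genes of hypoxia and glycolysis had 27 of 28 members with a higher estimate (median 0.28), which was 23 of 28 without the library labelled scASO 2 (median 0.12). Of the 28, 15 were higher within all 4 numbers, against 9.48% of all genes, and 15 within numbers 1, 3 and 4, against 15.1%. The mean log2 CPM of the list differed by 0.06, 0.87, 0.17 and 0.07, with number 2 the farthest from 0. Eno1, an enolase of glycolysis, was at 520.4, 572, 966 and 930.5 CPM in ASO1 1 to 4 and at 402, 508, 825 and 824 CPM in scASO 1 to 4, an estimate of 0.24 ± 0.09. Tpi1, triosephosphate isomerase, had an estimate of 0.27 ± 0.11, and Pfkfb4, which sets the level of an activator of glycolysis, 0.33 ± 0.15. None of these passed the test (adjusted p = 0.682).

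Lineage markers of the epithelium had estimates of both signs. Luminal markers had 14 of 27 members with a higher estimate in both fits, with medians of 0.04 and 0.01. Ehf, an ETS factor of epithelium, was at 367, 182, 207 and 288 CPM in ASO1 1 to 4 and at 369, 311, 269 and 309 CPM in scASO 1 to 4, with an estimate of -0.31 ± 0.14 (adjusted p = 0.682). It was lower in ASO1 within each number. Krt18, a keratin of luminal cells, was at 1071, 2021, 1318 and 1005 CPM in ASO1 1 to 4 and at 849, 1042, 1163 and 845 CPM in scASO 1 to 4, an estimate of 0.43 ± 0.19. Its partner keratin Krt8 had 0.33 ± 0.15, and the adhesion protein Epcam, the most abundant of these markers, 0.27 ± 0.22 (0.10 ± 0.22 without the library labelled scASO 2). Cldn4, a tight junction claudin, had an estimate of 0.79 ± 0.31, with ASO1 2 at 261 CPM against 82.2 CPM in the library labelled scASO 2. Milk protein genes, the product of differentiated alveolar cells, had 9 of 18 tested members higher (median 0.01) and 10 of 18 without the library labelled scASO 2 (median 0.03). Their abundant member Lcn2, a defense protein also found in milk, was at 3656, 5430.2, 4677 and 3542 CPM in ASO1 1 to 4 and at 3639, 3851, 3529 and 4033 CPM in scASO 1 to 4. Genes of milk fat synthesis had 15 of 23 higher (median 0.04) and 14 of 23 without the library labelled scASO 2 (median 0.07), and Scd1, a fatty acid desaturase, had an estimate of 0.18 ± 0.15.

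Basal and myoepithelial markers had 8 of 20 members with a higher estimate (median -0.11), and 8 of 20 without the library labelled scASO 2 (median -0.15). With the library labelled scASO 2 kept, the direction rested on number 4: 15 of 20 were higher without scASO 4 (median 0.09). Without all libraries of number 4 this was 13 of 20 (median 0.03). Within all 4 numbers 4 members were higher and 0 lower, against 9.48% and 7.92% of all genes. Within numbers 1, 3 and 4 the counts were 4 higher and 6 lower, against 15.1% and 13.3%. Among the 12 lower members, the smooth muscle actin gene Actg2 had -0.45 ± 0.35, or -0.71 ± 0.35 without the library labelled scASO 2. Krt14, a basal keratin linked to invading cells in this tumor, was at 1120, 1354, 1429.9 and 4086 CPM in ASO1 1 to 4 and at 1063, 1256, 1071 and 2559 CPM in scASO 1 to 4, an estimate of 0.32 ± 0.13 (adjusted p = 0.682). Krt17, a keratin of basal and stressed epithelium, had 0.44 ± 0.16, Itgb4, an integrin chain of hemidesmosomes, 0.26 ± 0.09, and Cdh3, a cadherin of basal cells, 0.23 ± 0.10. Squamous keratins and cornified envelope genes had 20 of 23 tested members with a higher estimate in both fits (median 0.22 and 0.18). Only 3 of the 23 were higher within all 4 numbers, against 9.48% of all genes. Within numbers 1, 3 and 4 the count was also 3, against 15.1%. The mean log2 CPM of the list differed by 0.12, 0.63, -0.16 and 0.51 in numbers 1 to 4. Krt6a, a keratin of activated epidermis, was at 153, 214, 321 and 1527 CPM against 123, 139.5, 231 and 916 CPM, an estimate of 0.53 ± 0.18. These keratins, Itgb4 and Cdh3 were higher in ASO1 within each number, and number 4 held much more of the squamous genes in every group: its summed level was 12301 and 8262 CPM in ASO1 4 and scASO 4, against 1274 to 2082 CPM in the other 6 libraries.

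Several signalling genes had estimates well away from 0 without passing the test. Etv1, an ETS factor induced by FGF signalling, was at 93.7, 52.4, 111 and 44.0 CPM in ASO1 1 to 4 and at 103.5, 86.2, 133 and 61.0 CPM in scASO 1 to 4, an estimate of -0.40 ± 0.12. Erbb4, a receptor for neuregulins, had -0.90 ± 0.34 at 0.19 to 2.71 CPM in ASO1 libraries. Wnt11, a noncanonical Wnt ligand, had 0.73 ± 0.23. Their lists were balanced: 11 of 21 FGF and ERK feedback genes, 8 of 15 ErbB receptors and ligands and 14 of 33 Wnt pathway genes had a higher estimate, and 11, 10 and 16 did without the library labelled scASO 2. Mmp10, a matrix metalloprotease, was at 18.7, 128, 23.2 and 59.5 CPM in ASO1 1 to 4 and at 18.6, 28.7, 5.97 and 33.1 CPM in scASO 1 to 4, an estimate of 1.32 ± 0.44, while Adam10, a sheddase of Notch and other surface proteins, had -0.28 ± 0.10. Atg5, needed for autophagosome formation, was at 30.6, 19.5, 34.2 and 31.8 CPM against 29.4, 27.8, 43.9 and 44.0 CPM, an estimate of -0.32 ± 0.09. None of them had an adjusted p below 0.682.

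**Figure D5:**
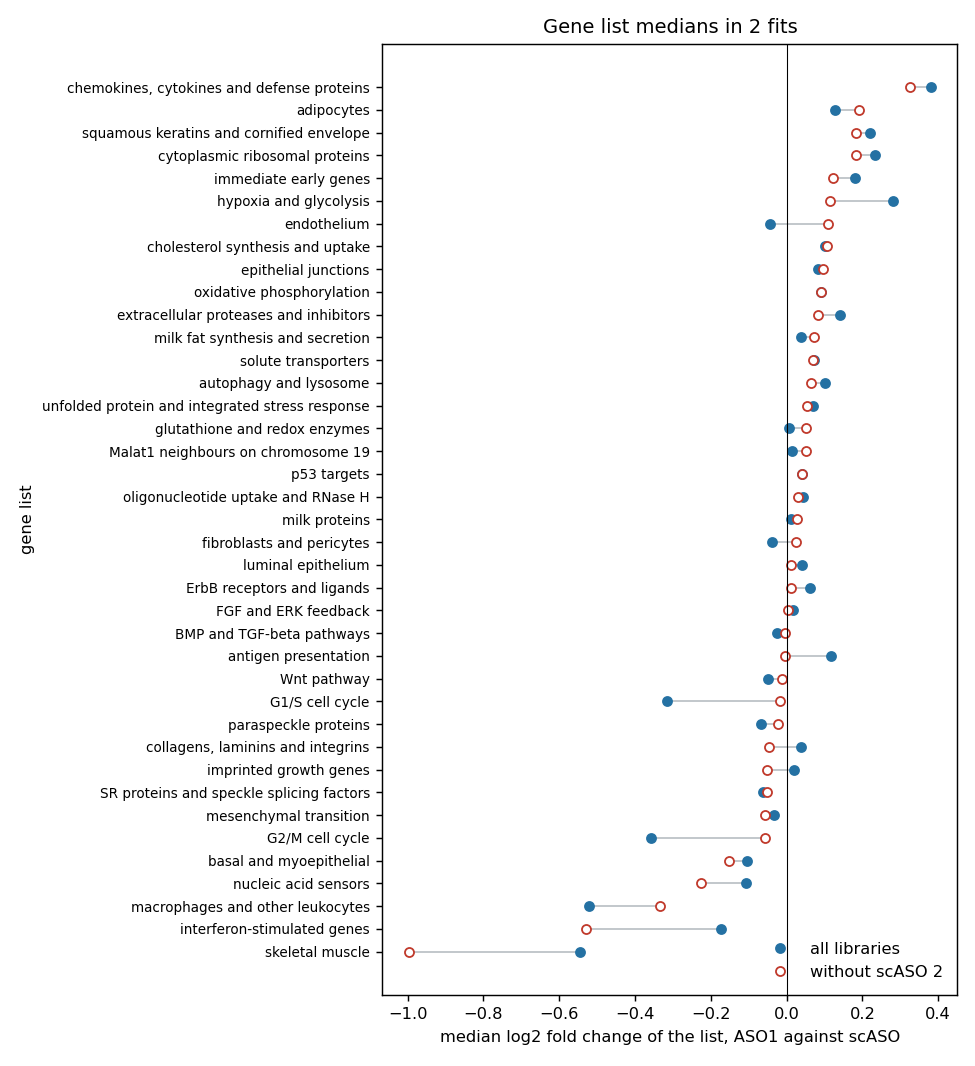
Median log2 fold change of ASO1 against scASO of the tested members of 39 gene lists, with all libraries (filled) and without the library labelled scASO 2 (open), ordered by the latter. Chemokines, cytokines and defense proteins lie at 0.38 and 0.33, G2/M genes move from -0.36 to -0.06, and skeletal muscle genes lie at -0.55 and -0.997.

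Markers of cell types other than epithelium were compared because organoid preparations can carry them along. Skeletal muscle genes had 4 of 10 tested members with a higher estimate (median -0.55) and 2 of 10 without the library labelled scASO 2 (median -0.997). Their summed level was low, 15.2 to 40.3 CPM in ASO1 and 15.9 to 38.7 CPM in scASO libraries. Ttn, the giant sarcomere protein, was at 1.39, 1.35, 0.77 and 0.63 CPM in ASO1 1 to 4 and at 6.64, 0.72, 2.03 and 1.45 CPM in scASO 1 to 4, and Myh1, a fast myosin, was at 0.09 to 0.55 CPM against 0.39 to 1.74 CPM, with scASO 1 the highest library for both. Without the library labelled scASO 2, limma voom with library weights called Ttn (-1.79, adjusted p = 0.0122) and Myh1 (-2.28, adjusted p = 0.0204). Near the limit of detection it also called Myh8, another myosin, lower (-5.47, adjusted p = 0.00878) and Catip higher (3.12, adjusted p = 0.0446). Malat1, whose own values had singled out that library, was at -2.99 there and is given with no test. Fibroblast and pericyte markers had 9 of 19 higher (median -0.04) and endothelial markers 6 of 14 (median -0.04). Both turned without the library labelled scASO 2, to 10 of 19 (median 0.03) and 9 of 14 (median 0.11), and neither list had a called member.

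The other Malat1 oligonucleotide gave the test of whether ASO1 acted apart from a second sequence. Between ASO1 and ASO2, 0 of 17126 genes were called (0%), and 342 (2%) stood out at an unadjusted p of 0.05. Malat1 itself was at 1343, 198, 88.6 and 287 CPM in ASO2 1 to 4, so the library labelled ASO2 1 lay with the controls. The log2 fold change of ASO1 against ASO2 was -1.63 ± 0.68 for Malat1 (adjusted p = 1), and without the libraries labelled scASO 2 and ASO2 1 it was -0.58 ± 0.27. In that fit 0 of 17325 genes were called (0%), and 453 (2.61%) stood out at an unadjusted p of 0.05. A p above the threshold does not show that the oligonucleotides act alike.

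The untreated Mock libraries set the scale of the oligonucleotide effect. In the same fit 407 genes were called between ASO1 and Mock (2.38%), 321 higher and 86 lower. Between scASO and Mock 128 were called (0.747%), 94 higher and 34 lower, with the Mock libraries shared by both contrasts. At an unadjusted p of 0.05 (edgeR) the order turned, with 2543 genes (14.8%) for ASO1 and 2699 (15.8%) for scASO. The adjusted counts depended on the doubtful libraries. They were 526 (3.03%) and 54 (0.311%) without the library labelled scASO 2, and 1159 (6.69%) and 308 (1.78%) without the libraries labelled scASO 2 and ASO2 1. At an unadjusted p of 0.05 these fits gave 15.8% and 11.3%, and 21.9% and 16%. Both fits held 3 scASO libraries against 4 ASO1 libraries, so the contrasts differed in power. Lrp1, an endocytic receptor, rose by 1.06 ± 0.12 in ASO1 and by 0.83 ± 0.11 in scASO on the log2 scale (edgeR, adjusted p = 0.00138 and 0.0133). Flnc, an actin cross-linking filamin, rose by 1.46 ± 0.14 and 1.15 ± 0.14 (adjusted p = 0.00101 and 0.00653). Between ASO1 and scASO directly, Lrp1 was at 0.23 ± 0.11 and Flnc at 0.31 ± 0.14, neither of them called. Krt14, Krt6a, Krt17, Itgb4, Cxcl16, C3, Cxcl3, Fdft1 and Mmp10 passed the test against Mock in ASO1 and not in scASO, and the direct comparison of the oligonucleotides called none of these genes. Without the libraries labelled scASO 2 and ASO2 1, Cxcl3 and Mmp10 passed in scASO as well (adjusted p = 0.0224 and 0.0155).

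The response of organoids to ASO1 was set against that of tumors treated in mice, with 3 ASO1 and 3 scASO tumors at 125 mg/kg per week. The difference between the responses was called for 6 of 18695 genes (0.0321%), in a fit that holds no control library in common, and for 3 (Chit1, Soga3 and Slc47a1) without the libraries labelled scASO 2 and ASO2 1. All 6 came with called changes in tumors and small estimates in organoids. Chit1, a chitinase, was at 2.02, 1.05 and 2.06 CPM in ASO1 tumors and 20.4, 13.7 and 15.01 CPM in scASO tumors, while in organoids it was at 77.8 to 89.3 CPM in ASO1 and 63.7 to 85.2 CPM in scASO libraries. The organoid response minus the tumor response was 3.47 ± 0.35 (adjusted p = 6.94e-05). Slc47a1, an exporter of organic cations, rose in tumors by 4.04 ± 0.43 on the log2 scale, and the difference was -3.95 ± 0.53 (adjusted p = 0.00223). The acute-phase proteins Saa1 and Saa2 fell in tumors, with log2 fold changes of -2.06 and -2.196, and were at 0.16 ± 0.14 and 0.30 ± 0.19 in organoids (0.09 ± 0.15 and 0.21 ± 0.20 without the library labelled scASO 2). For Malat1 the tumor estimate was -1.11 ± 0.66 in the joint fit, and the difference of -1.41 ± 0.88 did not pass the test (adjusted p = 0.552).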

How the data were processed

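Polyadenylated RNA was sequenced from TruSeq libraries, per the labels' protocols. The values are raw read counts per gene, 1 table per library, as deposited by the authors. The submitters' processing notes name CASAVA, FastQC, STAR, HTSeq, DESeq2 and the mm9 build; neither versions nor strand use are given in the sources used here, and genes overlapping another on either strand are uncertain. Lines for reads outside genes were left out; in organoids they held 8.34 to 14.6% (no feature), 4.44 to 8.70% (ambiguous) and 21.2 to 32.7% (several alignments) relative to reads in genes. Reads in genes numbered 23973533 to 65146030 per organoid library, and the number of libraries limits precision. Of 37310 gene IDs, 32620 matched a GENCODE M21 symbol.

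All 16 organoid libraries were fitted in edgeR 4.0.16 by quasi-likelihood (F-test, TMM scaling, filterByExpr with a minimum count of 10 and total of 15, Benjamini-Hochberg threshold 0.05) in R 4.3.3, with group and replicate number as terms. Of the 24 same-number pairs, 24 had correlated deviations above 0.1 (0.469 to 0.933). Of the 72 different-number pairs, 14 did (range -0.763 to 0.8). The numbers thus pair most of the libraries, with those labelled scASO 2 and ASO2 1 in doubt. Joint fits with tumors had the number as a term among organoids only. SE is the log2 fold change over the square root of F. Malat1 and Neat1 were tested by exact permutation of log2 CPM (prior count 2). Alternatives were DESeq2 1.42.0, limma 3.58.1, other scaling and filters, no block, and left-out libraries. The fit was tested on simulated data. Counts were drawn from the fitted model with every library taken as labelled and paired, and only genes above a floor of mean fitted counts were changed. With all libraries it called 54% of 1.5-fold, 84% of 2-fold and 100% of 4-fold changes, and 6 unchanged genes. Without the library labelled scASO 2 these were 48%, 82% and 98%, and 11 unchanged genes. Malat1 was not called in either fit of the real data, so these shares need not hold for each gene. They do not show that changes of such sizes were absent from the real data, which hold 2 doubtful libraries. No pair of libraries within a group was alike within sampling noise (lowest chi-square per degree of freedom 13.98, scASO 1 and the library labelled scASO 2). That pair was far closer than the remaining pairs, which lay at 120.1 to 413.1.

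The libraries, the 39 gene lists (911 members, 907 matched) and the rules were chosen with earlier results of these data known. The rule for named genes took Malat1, Neat1, the called genes of smallest p in each direction that averaged 1 or more in log2 CPM, and from each list its most abundant member and as many as 4 of smallest p in either fit. Other list members are named where their list is described. Flnc, Catip, Myh8, Bcl2, Bfar, Myo1f and Rps15a-ps7 fall outside the rule and were chosen after their values were seen. Lists are described by counts and medians. Results of some lists and members are not reported here.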

Additional observations from a re-analysis of the deposited data

Results flagged for a closer look

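A set of 6 differences between the organoid and the tumor response to ASO1 passed the test of the difference itself (edgeR, adjusted p under 0.05). The organoid minus tumor log2 values were 3.47 for Chit1, 5.28 for Soga3, -3.95 for Slc47a1, -0.92 for Eogt, an enzyme that adds GlcNAc to secreted proteins, 2.23 for Saa1 and 2.5 for Saa2. Soga3 was at 0.13, 0.08 and 0.03 CPM in ASO1 tumors and 4.18, 2.67 and 4.74 CPM in scASO tumors, while organoids had 4.32 to 29.4 CPM with ASO1 and 5.42 to 26.4 CPM with scASO.

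Within groups of 4, the lowest or highest library stood apart by Dixon's ratio in 13 of 146 combinations of a named gene and a group, and chance flags about 1 in 20. Of these, 4 were in scASO 3. It was the highest library for Ifit2 (ratio 0.833) and the lowest for Sipa1 (0.881), Lrp1 (0.878) and C3 (0.867). ASO1 4 was lowest for Ifit2 (0.835) and Ifih1 (0.83), and ASO1 2 for Bub1 (0.94). ASO1 2 was highest for Epcam (0.885). ASO1 3 was highest for Slc47a1 (0.873) and lowest for Cdh3 (0.861). In scASO 4, Slpi was highest (0.871) and Soga3 lowest (0.833). In the library labelled scASO 2, Srpk2 was lowest (0.856).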

How the results depend on the processing

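The count of 0 genes between ASO1 and scASO was also 0 without the block (44 genes at an unadjusted p of 0.05, and 58 without the library labelled scASO 2), with RLE size factors, with no count filter and without number 4. With all libraries, DESeq2 called 2 genes, and leaving out single ASO1 or scASO libraries gave 0 to 1, the 1 being Bcl2, an inhibitor of apoptosis, at -0.95 without ASO1 1. Without the library labelled scASO 2, limma voom called 5, the 7 ASO1 and scASO libraries alone 2, the fit without ASO2 1 called 1 (Malat1), and leaving out a further ASO1 or scASO library gave 0 to 3, the 3 being Bcl2, Bfar and Cd36, all lower, without ASO1 1. The counts of 5, 2 and 1 each include Malat1, whose own values had singled out the library left out, so its calls there are no test. The Malat1 log2 ratio ranged from -2.92 to -1.79 when single libraries were left out. Without the library labelled scASO 2 it ranged from -3.12 to -2.73, and with the replicate block in edgeR it was -3.01; these values are given with no test, since Malat1 singled out that library. Exchanging labels within numbers (replicate block, chosen after seeing the data) gave an exact p of 0.125, the smallest possible. Neat1 turned to 0.10 with limma voom and ranged from -0.183 to 0.056 when single libraries were left out; the cause was not tested. Actg2 turned to 0.023 without number 4 and ranged from -0.714 to 0.0589 when single libraries were left out, the highest without scASO 4. No other named gene changed sign. The medians of 18 of 39 lists changed sign under 1 or more alternatives, among them interferon-stimulated, basal, luminal, milk protein, fibroblast and endothelial genes. Organoid minus tumor calls numbered 1 without the block and 3 without the libraries labelled scASO 2 and ASO2 1. List medians moved beyond the spread between numbers in 21 of 624 cases, among them squamous genes at 0.58 without the block. Depth leaves genes under about 1 CPM, such as Tlr8, Myh8 and Igf2, with the widest errors.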
